A study of Homo sapiens with 11 samples.

Results

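The transcripts described here are 10 early response genes measured in the human cell line 786-0, which was derived from a clear cell carcinoma of the kidney. They are EGR1, EGR2 and EGR3, NR4A1, NR4A2 and NR4A3, IER2 and IER5, and ZFP36 and ZFP36L1. They were chosen by symbol from the authors' table, and all 10 were found among its 20500 entries. The cells received DMSO vehicle (control, 6 samples) or everolimus dissolved in DMSO (5 samples), each for 4 h. The dose stands as "10um" in the labels and is read as micromolar. Everolimus binds the immunophilin FKBP12, and the pair inhibits the kinase mTOR in its complex 1. All samples come from a single cell line grown in DMEM, and nothing in the labels tells whether replicates were separate cultures, so p-values measure the spread among these libraries only, and that spread may be technical.

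Early response genes are transcribed within minutes of a stimulus without new protein synthesis, mostly through serum response factor (SRF) with its ternary complex partners and through CREB, and their transcripts are short-lived. The EGR proteins are zinc finger transcription factors that bind GC-rich sites, and the NR4A proteins are orphan nuclear receptors that act without a known hormone. IER2 and IER5 are nuclear proteins of the early response, and IER5 promotes the activity of the heat shock factor HSF1. ZFP36 and ZFP36L1 bind AU-rich elements in the 3' ends of mRNAs and recruit the deadenylase that starts their decay. ZFP36 limits the output of inflammatory mRNAs and also acts on its own transcript.

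Promoter sequences are shown for some of the members, since the elements through which early response genes are induced lie just before their starts. RefSeq windows (GRCh38.p14) were found for 8 of the 10 members, NR4A2 and EGR3 being the others, and the 250 bases before the start were searched on both strands. The windows of NR4A1 and IER2, and further windows of EGR2 and ZFP36L1, were searched but are not shown. Capitals mark CArG boxes, the SRF-binding element, and the letters TGACG, the core of the CREB element, on either strand.
EGR1 (chr5:138465229-138465478, plus strand): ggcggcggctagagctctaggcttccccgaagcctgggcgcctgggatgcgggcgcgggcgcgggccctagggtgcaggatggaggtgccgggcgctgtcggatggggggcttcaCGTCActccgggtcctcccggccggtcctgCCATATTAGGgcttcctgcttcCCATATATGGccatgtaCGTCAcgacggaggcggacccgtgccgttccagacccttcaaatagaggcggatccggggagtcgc
EGR2 (chr10:62816367-62816616, minus strand): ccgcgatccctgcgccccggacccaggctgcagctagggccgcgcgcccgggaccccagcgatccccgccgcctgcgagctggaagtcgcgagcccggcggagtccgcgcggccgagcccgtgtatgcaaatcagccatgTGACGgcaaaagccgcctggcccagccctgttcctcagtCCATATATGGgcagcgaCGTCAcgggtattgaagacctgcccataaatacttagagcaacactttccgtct
NR4A3 (chr9:99821635-99821884, plus strand): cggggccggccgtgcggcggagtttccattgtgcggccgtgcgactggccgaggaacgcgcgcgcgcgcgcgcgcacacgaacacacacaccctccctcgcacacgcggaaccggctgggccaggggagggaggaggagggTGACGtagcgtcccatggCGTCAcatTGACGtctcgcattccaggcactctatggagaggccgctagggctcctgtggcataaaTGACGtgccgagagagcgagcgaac
ZFP36L1 (chr14:68793417-68793666, minus strand): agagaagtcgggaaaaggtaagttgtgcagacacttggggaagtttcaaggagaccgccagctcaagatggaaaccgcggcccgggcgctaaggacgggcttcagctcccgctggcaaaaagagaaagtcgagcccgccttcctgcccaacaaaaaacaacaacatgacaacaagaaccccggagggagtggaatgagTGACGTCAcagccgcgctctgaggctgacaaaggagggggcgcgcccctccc
IER5 (chr1:181088450-181088699, plus strand): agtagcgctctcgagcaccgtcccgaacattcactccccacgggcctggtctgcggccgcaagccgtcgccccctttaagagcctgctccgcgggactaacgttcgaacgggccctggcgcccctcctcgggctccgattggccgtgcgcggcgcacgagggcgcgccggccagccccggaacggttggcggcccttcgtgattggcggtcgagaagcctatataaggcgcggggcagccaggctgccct
ZFP36 (chr19:39406597-39406846, plus strand): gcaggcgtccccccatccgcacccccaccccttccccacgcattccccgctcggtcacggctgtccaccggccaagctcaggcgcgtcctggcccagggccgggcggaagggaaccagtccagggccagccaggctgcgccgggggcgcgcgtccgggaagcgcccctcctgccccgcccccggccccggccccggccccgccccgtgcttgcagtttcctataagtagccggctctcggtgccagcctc
EGR1 held 2 CArG boxes, starting 105 and 83 bases before the start, and the third of the 3 EGR2 windows held 1 at 71. A CArG box was found in 1.16% of all 35116 windows of this length. TGACG occurred 4 times before NR4A3 and 2 times each before EGR1 and in that EGR2 window, and 1 time before IER2 and in the first ZFP36L1 window. With the second ZFP36L1 window, 6 of the 12 member windows held it, and 21.2% of all windows did. The second of the 2 ZFP36L1 windows held the full palindrome TGACGTCA, found in 1.65% of windows, and its 2 TGACG matches overlap within it. Neither motif was matched before IER5, before ZFP36 or in the 2 windows of NR4A1. None of the 12 member windows held GCGGGGGCG (an EGR site, 4.72% of windows), AAAGGTCA (an NR4A site, 1.05%), TGANTCA (an AP-1 site, 6.57%) or the NF-kappaB site (5.21%). These matches describe letters and show no binding.

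The second set of sequences shows the element that ZFP36 proteins read, because 5 members carry it themselves. In the longest principal protein-coding transcript of GENCODE 29 (GRCh38), the letters TATTTAT stood in the 3' untranslated region of NR4A2 (1 match), NR4A3 (2), IER5 (4, of which 3 overlap), ZFP36 (3) and ZFP36L1 (3), and in none of the other 5 members. The motif occurred in 29.6% of 18405 genes, whose untranslated regions had a median length of 917 bases, against 562 to 3024 bases in the members. One site of each is given for NR4A2, IER5, ZFP36 and ZFP36L1, with the motif in capitals.
NR4A2 (chr2:156325128-156325156, minus strand): tattttgtgccTATTTATgaataaatatt
IER5 (chr1:181092443-181092471, plus strand): gtgtcttccttTATTTATttatttattta
ZFP36 (chr19:39409181-39409209, plus strand): aatgggcccttTATTTATgacgactttat
ZFP36L1 (chr14:68788336-68788364, minus strand): ttatcaaaacgTATTTATtgccaaactat
Members with the motif were found among those that rose (NR4A2, IER5 and ZFP36L1) and as the one that fell (ZFP36), as described next.

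After 4 h with everolimus, NR4A2, NR4A1, IER5 and ZFP36L1 were higher, ZFP36 was lower, and EGR1 and IER2 did not pass the test. Levels are given in units, the authors' scaled estimated read counts, scaled so that the upper quartile of genes above 0 lies near 1000, with a single read counting as 0.307 to 1.05 units. Libraries held 14230609 to 36828198 estimated reads in the controls and 29760779 to 52522755 with everolimus, so counting error is larger in the controls. Of 12668 genes with at least 10 units in at least 5 samples, limma on log2(value + 1) called 55.2% at an adjusted p under 0.05, 27.8% higher and 27.4% lower. Of the 10 members 7 reached that filter, and 4 of these were higher and 1 lower. With the filter at 100 units, which leaves NR4A2 out, 2 of 4 members were higher and 1 lower, against 58.6% of genes called, 29.9% higher and 28.7% lower. The 7 members' median log2 fold change was 0.27, against -0.0081 over all tested genes. Groups did not overlap for 4 of the 7, against 37.9% of all tested genes (20.3% higher and 17.6% lower), and all 4 were higher. NR4A2 is counted among these 4, among the 4 called higher and in the median. It reached the filter only through its everolimus libraries, since 2 controls stood at 10 units or more. The filter thus favours counting NR4A2 as higher. Apart from the counts at 100 units, the members' values here were not recomputed without it. Whether the members' shares differ from those of the table was not tested. In bulk RNA, a change in the share of cells that hold a transcript and a change per cell cannot be told apart.

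Controls 1 to 3 with everolimus 1 and 2 (called the first set) differed from the other libraries (the second set) in the share of low values that are whole multiples of 1 read, which was 89.4% to 90.4% against 93.4% to 94.0%. The labels name no such division, so member effects are also given within each set. Limma called 43.3% of genes within the first set, 24.0% higher and 19.3% lower, and 43.7% within the second, 21.1% higher and 22.5% lower. Members called were 5 higher and 1 lower in the first and 4 and 1 in the second. The renal marker PAX8 (3189 ± 78.7 units, SD, n = 6) and 8 of 9 markers of the line in all were expressed in the controls, while the hypoxia target CA9 stood at 1.41 ± 1.24. Of 9 markers of other cell types 4 passed the filter, and the summed level of the 9 was 490 to 586 units in the controls and 464 to 546 with everolimus. In the controls the 4 were CD68 at 385 ± 37.3 units, COL1A1 at 75.5 ± 17.3, EPCAM at 55.2 ± 2.63 and SYP at 18.7 ± 3.48. CD68, listed for leukocytes, thus stood above the renal markers PAX2 (294 ± 14.4) and LHX1 (202 ± 10.2). EPCAM was listed as an epithelial marker, and the line derives from a carcinoma, so its level need not come from another cell type. CD3E and PECAM1 were at 0 in all 11 libraries and PTPRC and VWF in 10.

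**Figure D1:**
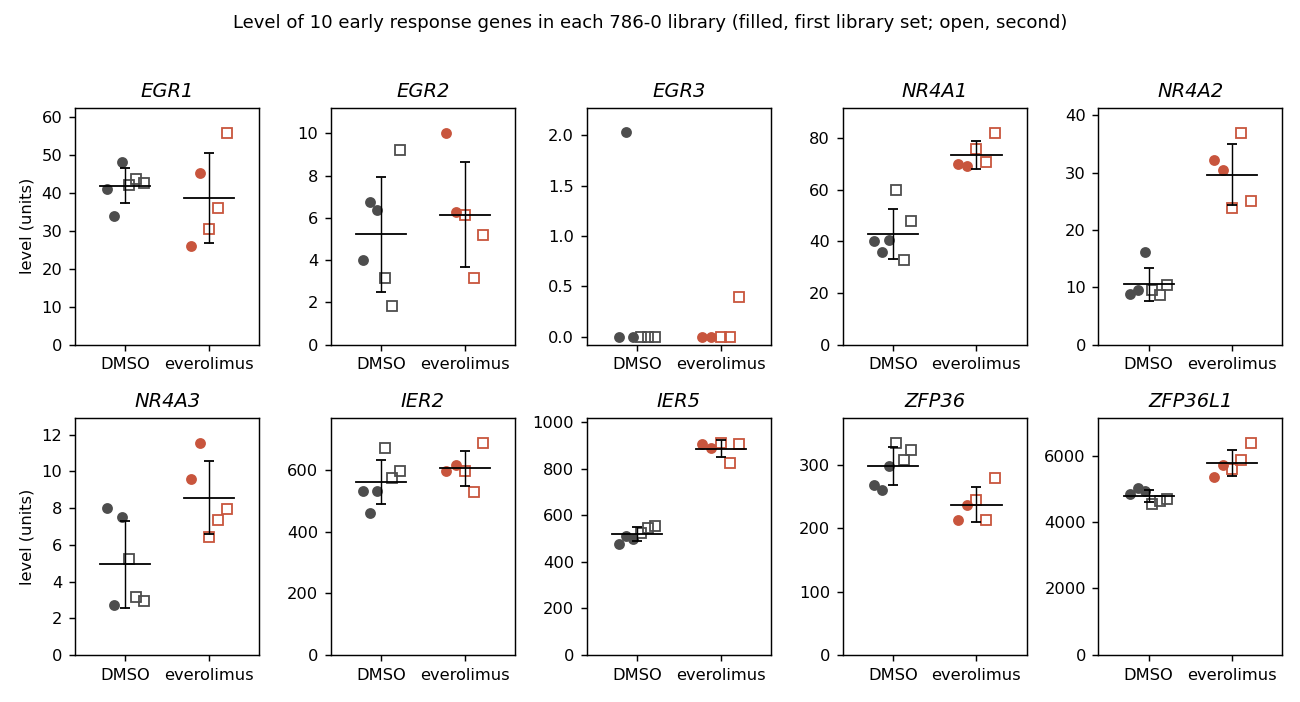
Level in units (y axis, linear, from 0) of each of the 10 genes in every library of the DMSO control and everolimus groups, with filled circles for the first library set and open squares for the second. Horizontal lines are group means and bars are SD (n = 6 and 5), left out for EGR3, which was above 0 in 2 of 11 libraries. The everolimus points of NR4A1, NR4A2, IER5 and ZFP36L1 lie above all control points.

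Among the NR4A receptors, NR4A2 (NURR1, known for its part in dopamine neurons and as an early response gene in many cells) changed most of all members. Its control libraries ran from 8.63 over a median of 9.46 to 16.2 units, and its everolimus libraries stood at 32.1, 30.4, 23.9, 36.9 and 25. Every everolimus library lay above every control, and control 3 was the highest of the controls. The means were 10.5 ± 2.88 (SD, n = 6) and 29.7 ± 5.32 (n = 5), a 2.82-fold ratio, with a log2 fold change of 1.43 (SE 0.184, limma adjusted p = 1.30e-05). Only 2 of 6 controls reached 10 units, so NR4A2 passed the filter through the everolimus libraries. These levels correspond to 9 to 28 reads in each control and 63 to 87 in each everolimus library. Of the tested genes, 186 rose by more.

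NR4A1 (NUR77, a receptor that is also involved in apoptosis) rose as well. It ran from 32.7 over a median of 40.4 to 59.8 units in the controls and stood at 70.1, 69.1, 75.7, 70.6 and 81.9 with everolimus. The groups did not overlap, and control 4 was the highest of the controls. From 42.8 ± 9.76 to 73.5 ± 5.34 units the ratio of means was 1.72-fold and the log2 fold change 0.79 (SE 0.135, limma adjusted p = 0.000177). The log2 levels of the controls had an SD of 0.30, against a counting error of 0.18, while the everolimus libraries had 0.10 against 0.11, so the spread with everolimus was no more than counting gives.

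NR4A3 (NOR1) was too low to be tested in the same fit, with 4 to 13 reads in each control and 14 to 33 in each everolimus library. Control values ran from 2.70 over a median of 4.21 to 8.03 units, and everolimus values were 9.60, 11.5, 6.44, 7.38 and 7.95. The groups overlapped over all libraries but not within either library set. The sets are small, with 3 controls each and 2 or 3 everolimus libraries. How many of all genes part within them was not counted. A two-sided exact permutation test gave p = 0.0411 for a difference of 0.76 on the log2 scale, where the smallest p that 462 regroupings allow is 0.00216. All 5 everolimus libraries lay above the control median. The permutation p rose above 0.05 without any one of 7 of the 11 libraries (up to 0.0762), and limma without the filter, which called 41.5% of genes (20.9% higher and 20.5% lower), gave an adjusted p of 0.0339.

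No EGR gene passed a test. EGR1, the most studied of them and a growth factor-induced activator, ran from 33.8 over a median of 42.3 to 48.1 units in the controls. With everolimus it stood at 25.9, 45.0, 30.4, 35.8 and 55.6. The everolimus libraries lay on both sides of the controls, with the lowest and the highest value of all 11. The means were 41.9 ± 4.67 and 38.6 ± 11.9 units, and the log2 fold change of -0.16 (SE 0.172, limma adjusted p = 0.458) had a 95% confidence interval of -0.53 to 0.21. The SD of its log2 level was 0.16 in the controls, near the counting error of 0.18, and 0.43 with everolimus, against a counting error of 0.15. That difference in spread was not tested.

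EGR2, which directs myelination in Schwann cells, was near the limit of counting, with 3 to 22 reads in each control and 6 to 24 with everolimus. Its level ran from 1.82 over a median of 5.20 to 9.20 units in the controls and stood at 10.0, 6.29, 6.13, 3.16 and 5.17 with everolimus. The groups overlapped, and the two-sided exact permutation test of the difference of 0.26 on the log2 scale gave p = 0.502. EGR3, a relative of EGR1 known from muscle spindles and lymphocytes, was at 0 in 5 of 6 controls and 4 of 5 everolimus libraries. It had 3 reads in control 2 (2.03 units) and 1 read in everolimus 5 (0.398 units), and no fold change is given. A count of 0 allows up to 3 reads, or 0.920 to 3.15 units depending on the library, for counting error only.

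IER5 rose in every everolimus library. Its control libraries ran from 477 over a median of 518 to 556 units, and the everolimus libraries stood at 906, 888, 909, 826 and 905. The gap between the groups was wider than the range within either, and everolimus 4 was the lowest of its group. The means were 519 ± 30.4 and 887 ± 35.1 units, a 1.71-fold ratio, with a log2 fold change of 0.77 (SE 0.046, limma adjusted p = 4.14e-09). Counts were ample, at 501 to 1330 reads per control library and 1567 to 2965 with everolimus. Its fold change was close to that of NR4A1, at a level where counting error is small.

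IER2, at a similar level in the controls, ran there from 460 over a median of 555 to 674 units. With everolimus it stood at 598, 618, 598, 530 and 687 units, and the groups overlapped. The log2 fold change was 0.11 (SE 0.085, limma adjusted p = 0.278), with a 95% confidence interval of -0.069 to 0.30. In the first library set the everolimus libraries lay above the controls (460 to 534 units) and the log2 fold change was 0.26 (adjusted p = 0.0173), whereas in the second it was -0.030 (adjusted p = 0.820). Over all alternatives its adjusted p ranged from 0.0173 to 0.820. The test of the difference between sets gave an unadjusted p of 0.0472 and an adjusted p of 0.797 in limma.

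ZFP36 (tristetraprolin) was the one member that fell. Controls ran from 260 over a median of 303 to 334 units, and everolimus libraries stood at 212, 236, 245, 212 and 280. Everolimus 5 overlapped the controls, while the other 4 lay below them all. From 298 ± 29.7 to 237 ± 27.9 units the log2 fold change was -0.33 (SE 0.084, limma adjusted p = 0.00389). The groups did not overlap within either set, since the controls of the second set (308 to 334 units) stood above those of the first (260 to 298). As for NR4A3, how many of all genes part within the sets was not counted. The log2 fold change was -0.29 within the first set (limma adjusted p = 0.0251) and -0.40 within the second (0.00509).

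ZFP36L1 (BRF1), the paralog at the highest level, rose. Its controls ran from 4544 over a median of 4765 to 5010 units, and everolimus libraries stood at 5342, 5703, 5597, 5876 and 6363. The groups did not overlap. The means were 4777 ± 181 and 5776 ± 381 units, a log2 fold change of 0.27 (SE 0.043, limma adjusted p = 8.28e-05). Within the first set it was 0.16 (adjusted p = 0.0156) and within the second 0.36 (adjusted p = 0.000123). The test of the difference between sets had an unadjusted p of 0.0172 and an adjusted p of 0.786 in limma, and no gene of the table passed it, with 783 of 12668 at an unadjusted p under 0.05. After quantile normalization the rise was 0.19 (adjusted p = 0.00161, range over all alternatives 4.73e-05 to 0.0156).

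**Figure D2:**
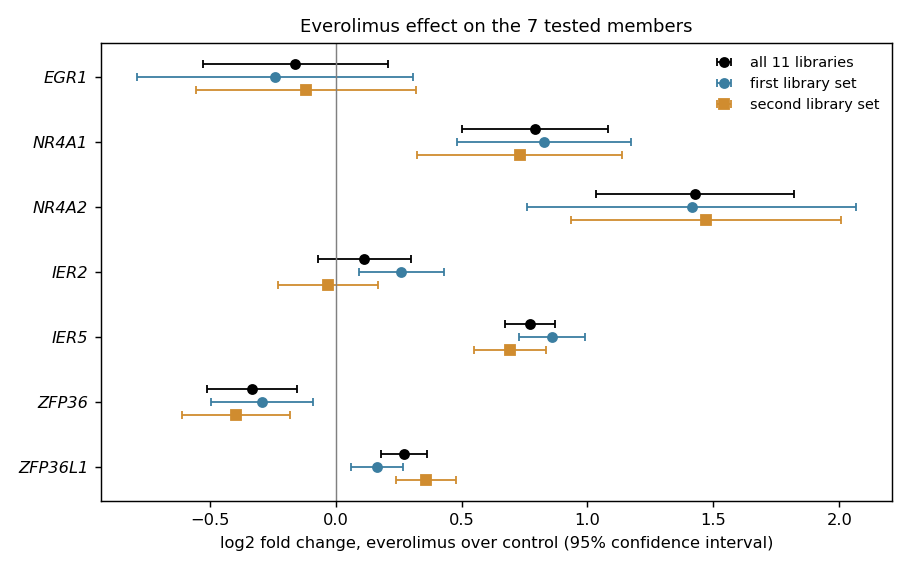
Log2 fold change of everolimus over control (x axis) with its 95% confidence interval from limma for the 7 tested members, over all 11 libraries and within each library set. NR4A2 has the largest value at 1.43, ZFP36 is below 0 in all 3 fits, and the intervals of EGR1 include 0 in all 3.

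Per kilobase of the GENCODE transcript used above, levels in the controls spanned a wide range. ZFP36L1 came first at 1500 ± 56.8 units per kb (SD, n = 6), then IER2 at 192 ± 24.6, ZFP36 at 167 ± 16.6 and IER5 at 124 ± 7.27. NR4A1 at 16.0 ± 3.64 and EGR1 at 13.3 ± 1.49 came next, then NR4A2 at 3.03 ± 0.829, EGR2 at 1.76 ± 0.915 and NR4A3 at 0.865 ± 0.419. Intervals of 1 SD overlap between IER2 and ZFP36, between NR4A1 and EGR1, between NR4A2 and EGR2, and between EGR2 and NR4A3. The group intervals alone thus do not settle the order of these neighbours, and levels per kilobase were not compared library by library. With everolimus IER5 stood at 212 ± 8.38 and IER2 at 207 ± 19.2, also within 1 SD, and NR4A1 at 27.4 ± 2.0 was above EGR1 at 12.3 ± 3.8. The authors' transcript models were not given in the sources used here, so the lengths are approximate.

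Relatives differed in their response in the IER and ZFP36 families. For 8 pairs within families, the difference of log2(value + 1) between 2 genes was taken in each library and compared between groups by a two-sided exact permutation test, adjusted over the 8 pairs. The balance of ZFP36 against ZFP36L1 moved by -0.60 on the log2 scale, from -4.00 ± 0.193 (SD, n = 6) to -4.61 ± 0.116 (n = 5), and that of IER2 against IER5 by -0.66, from 0.11 ± 0.163 to -0.55 ± 0.0966. In these 2 pairs the groups did not overlap and p was 0.00216, the smallest the exact permutation test can give, or 0.00866 adjusted. Of single tested genes 37.9% did not overlap, and 27.8% were called higher and 27.4% lower. How often 2 unrelated genes would part in the same way was not tested, so the result is not shown to be particular to relatives.

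Within the NR4A family the groups overlapped in every pair. NR4A1 against NR4A2 moved by -0.64 (exact permutation p = 0.0238, adjusted 0.0606) and NR4A2 against NR4A3 by 0.67 (exact permutation p = 0.0303, adjusted 0.0606), so neither passed after adjustment. NR4A1 against NR4A3 moved by 0.029 (exact permutation p = 0.922) and EGR1 against EGR2 by -0.42 (exact permutation p = 0.383). With NR4A3 and EGR2 at so few reads, these do not show that the relatives move alike. The 2 pairs with EGR3 rest on a gene at 0 in 9 of 11 libraries and are not read.

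**Figure D3:**
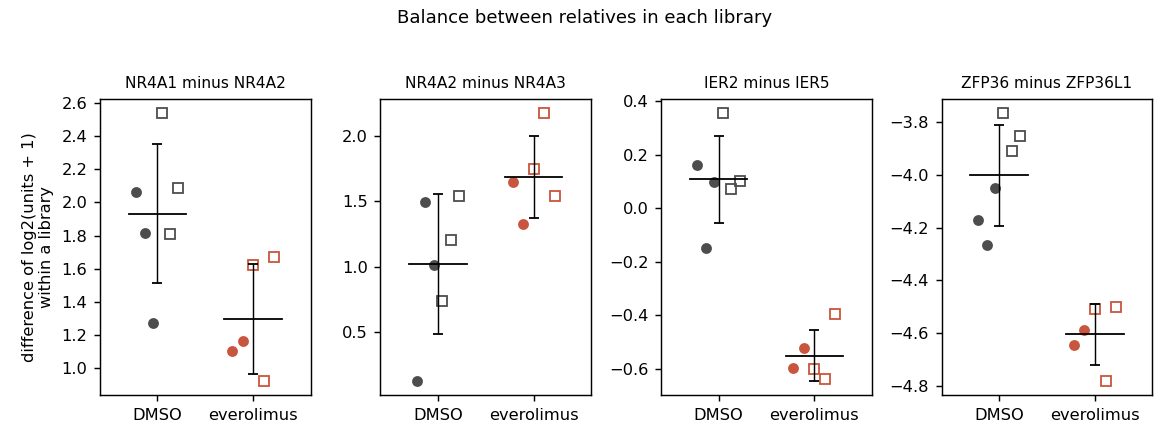
Difference of log2(units + 1) between 2 relatives within each library (y axis, not starting at 0), for DMSO control and everolimus, with group means and SD (n = 6 and 5); filled circles are the first library set and open squares the second. The everolimus libraries lie below all controls for IER2 minus IER5 and for ZFP36 minus ZFP36L1, while the groups overlap for both NR4A pairs.

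Other early response genes moved mostly upward. Of 37 further genes in a list of this class, 34 were tested, and 27 rose and 6 fell, with a median log2 fold change of 0.69. FOSB needed everolimus libraries to pass the filter, and without it 26 of 33 rose and 6 fell, with a median of 0.64, beside 27.8% and 27.4% of all tested genes. This list and those below were chosen with earlier results of these data known. Whether their shares differ from those of all tested genes was not tested. MAFF, a small partner of AP-1 and NRF2 factors, rose from 50.2 ± 6.82 to 607 ± 31.5 units (3.58, SE 0.090, limma adjusted p = 4.52e-13). KLF6, a zinc finger factor, rose by 1.66 (SE 0.034), PPP1R15A, which restores translation after stress, by 1.56 (SE 0.037) and CYR61 (now CCN1), a matrix protein, by 1.30 (SE 0.034). Not every relative followed, since IER5L, a paralog of IER5, fell by 1.07 on the log2 scale, from 605 ± 156 to 284 ± 55.7 units (limma adjusted p = 6.38e-05). FOS, the prototype of the class, was under the filter, at 1.05 to 6.76 units in the controls and 5.17 to 8.76 with everolimus, and EGR4 was at 0 in all 11 libraries. At 4 h FOS, EGR2 and EGR3 were at low level in both groups. EGR1, at 41.9 ± 4.67 units in the controls, stood there near NR4A1 (42.8 ± 9.76) and somewhat below MAFF. KLF6 was at 2259 ± 76.8 units already in the controls and at 7131 ± 268 with everolimus.

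Among 22 regulators upstream of these genes, 10 rose and 4 fell, beside 27.8% and 27.4% of all tested genes, with a median of 0.0093. The transcription factor SRF rose from 638 ± 48.8 to 1065 ± 47.7 units (0.74, SE 0.053, limma adjusted p = 2.63e-08). Its ternary complex partner ELK3 rose by 1.35 (SE 0.058), the kinase gene RPS6KA5 (MSK1, which phosphorylates CREB) by 1.07 (SE 0.086) and MAPK7 (ERK5) by 0.53 (SE 0.066). After quantile normalization 9 rose and 7 fell, beside 25.6% and 31.9% of all tested genes.

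Of 14 tested partners and target genes of the EGR proteins, 10 rose and 3 fell, beside 27.8% and 27.4% of all tested genes, with a median of 0.33. The tissue factor gene F3 rose from 340 ± 55.7 to 1121 ± 48.4 units (1.73, SE 0.091) and TNFRSF10B, a death receptor gene, by 0.91 (SE 0.036). The EGR corepressor genes NAB1 and NAB2 rose as well, NAB1 by 0.70 (SE 0.054, limma adjusted p = 5.90e-08) and NAB2 by 0.35 (SE 0.063, adjusted p = 0.000281). EGR1 itself, as given above, did not pass.

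Of 10 tested partners of the NR4A receptors 1 rose and 4 fell, with a median of -0.14. The 5 called are near the 55.2% of all tested genes. RXRA, the retinoid X receptor that pairs with NR4A1 and NR4A2, fell from 2487 ± 129 to 1627 ± 40.8 units (-0.61, SE 0.038, limma adjusted p = 6.41e-09), and its paralog RXRB rose by 0.20 (adjusted p = 0.0131). The corepressor gene NCOR1 (-0.20, SE 0.052) and the coactivator gene NCOA3 (-0.18, SE 0.042) fell. The counts were 1 and 5 within the first library set, where 43.3% of all genes were called, and 0 and 2 within the second, where 43.7% were.

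Of 30 genes of the ZFP36 family and of mRNA decay, 8 rose and 10 fell, with a median of -0.046, near the 27.8% and 27.4% of all tested genes. ZC3H12A, a ribonuclease that cuts inflammatory mRNAs, rose from 194 ± 17.2 to 478 ± 16.4 units (1.30, SE 0.063, limma adjusted p = 4.46e-10). TNKS1BP1, which associates with the deadenylase complex, rose by 0.59 (SE 0.031), RC3H1 (Roquin-1), which binds stem-loops in such mRNAs, by 0.60 (SE 0.059) and YWHAZ, a 14-3-3 protein gene, by 0.42 (SE 0.039). Among the 10 that fell were the deadenylase genes PAN2 (-0.45, SE 0.063, limma adjusted p = 3.20e-05) and CNOT10 (-0.31, SE 0.044, adjusted p = 3.26e-05). ZFP36L2, the third of the expressed family members, rose by 0.45 (SE 0.062), from 343 ± 33.3 to 467 ± 12.1 units. Thus ZFP36 fell while ZFP36L1 and ZFP36L2 rose. After quantile normalization 7 of the 30 rose and 14 fell, while 25.6% of all tested genes rose and 31.9% fell, and within the sets 7 and 6 rose and 7 and 5 fell.

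Transcripts known to carry AU-rich elements read by ZFP36 proteins rose strongly. Of 23 tested 21 rose and 2 fell, with a median of 2.56, but 6 of the 23 needed everolimus libraries to pass the filter, namely CXCL1, CXCL2 and 4 with no control at 10 units (CSF2, CCL20, TNF and CXCL3). Of the remaining 17, 15 rose and 2 fell, with a median of 1.72, beside 27.8% and 27.4% of all tested genes. As the list was chosen with earlier results known, these shares describe the listed genes only. IL8 (now CXCL8, a chemokine) rose from 29.5 ± 5.86 to 7687 ± 596 units and the cytokine gene IL6 from 18.0 ± 3.66 to 2148 ± 66.4. PLAU, the urokinase gene, rose by 2.80 (SE 0.054) and BIRC3, an apoptosis inhibitor, by 2.47 (SE 0.040). VEGFA, an angiogenic factor, was among those that fell (-1.11, SE 0.050, limma adjusted p = 1.87e-10). The list shares IER3, DUSP1 and MCL1 with the list of early response genes.

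Of 12 tested genes of HSF1, its targets and others on which IER5 is known to act, 0 rose and 8 fell (27.8% and 27.4% of all tested genes), by small amounts, with a median of -0.14. BAG3, a cochaperone, fell by 0.20 on the log2 scale (SE 0.040, limma adjusted p = 0.000726), PPP2R5A, a phosphatase subunit gene, also by 0.20 (SE 0.050), CDC25B, a phosphatase of mitotic entry, by 0.15 (SE 0.040) and DNAJB1 by 0.13 (SE 0.032). HSF1 (-0.055), HSP90AA1 (0.025), HSPA1A (0.065) and HSPA1B (-0.18) did not pass. HSPA1A, a main HSF1 target and nearly identical in sequence to HSPA1B, ran from 840 to 4311 units among the controls, and the SE of its log2 fold change was 0.592. Within the library sets its log2 fold change was -0.13 in the first (limma adjusted p = 0.123) and -0.18 in the second (0.0295). It thus passed as lower in the second set only. Within the first library set 4 fell and within the second 6.

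**Figure D4:**
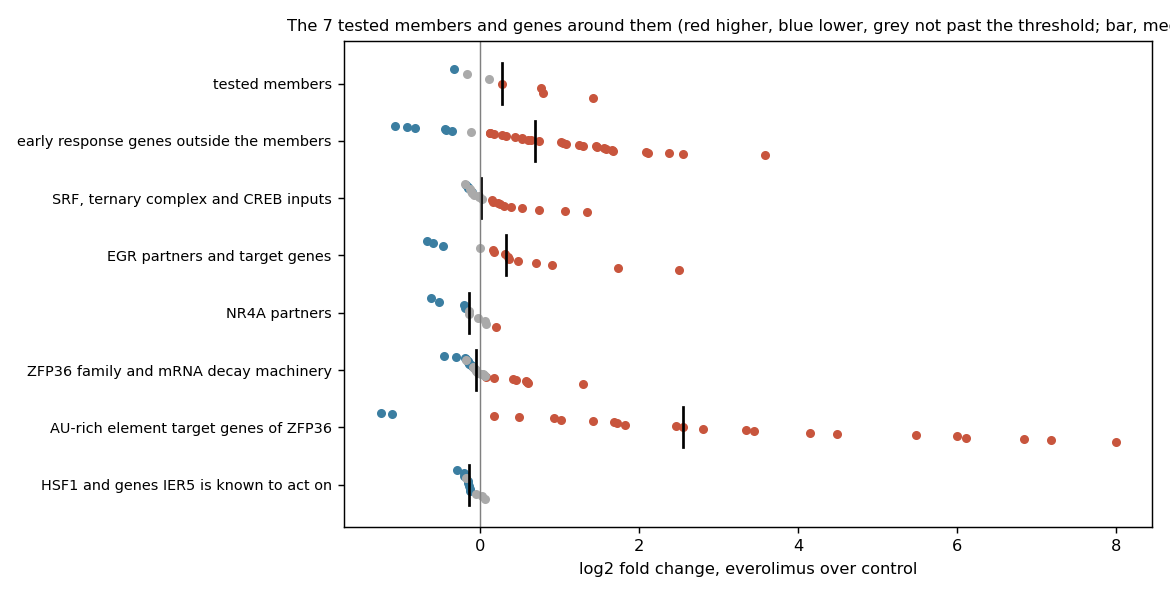
Log2 fold change of everolimus over control (x axis) for each tested gene of the members and of the 7 lists around them, 1 point per gene, red where higher, blue where lower and grey where not past a limma adjusted p of 0.05, with a bar at the median. The AU-rich element list reaches the largest values, up to 8.0 for IL8, and the HSF1 list lies between -0.29 and 0.065.

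The genes whose profiles over the 11 libraries were most like those of the members were found by the root mean squared difference of log2 levels, each centred on its own mean. For IER5 these were IFNAR1 (0.0525), KLHL21 (0.0538) and ANKLE2 (0.0538), against 0.391 for IER5 around its own mean. NR4A2 was nearest to KYNU (0.196), EDN1 (0.220) and PTPRR (0.235), against 0.757 around its mean, and NR4A1 had FAM100A (0.151) and TNFRSF14 (0.152) among its nearest. ZFP36 was nearest to MIIP (0.0512), HMG20B (0.0647) and FGFR4 (0.0656), and ZFP36L1 had among its nearest ADIPOR1 (0.0447) and ARHGAP1 (0.0485). The nearest genes were OCEL1 (0.157), VEGFB (0.157) and MOSC2 (0.167) for EGR1 and MRPL41 (0.0459), C19orf63 (0.0506) and CEMP1 (0.0509) for IER2. No member was among the 3 nearest genes of another.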

How the data were processed

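RNA of the cell line was sequenced from stranded, poly(A)-selected libraries, per the labels' protocols. The authors deposited 1 table of a scaled signal per gene and sample. The submitters' processing notes list the build hg19 and the tools RSEM, SAMtools and Picard 1.64, with no role for any of them. The aligner, the annotation and the strand setting were not given in the sources used here. The value of 1 read was found from the steps between low values, and 109 of the 110 member values were whole reads within 0.1. Over the whole table a part was fractional, so no count model was used.

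Everolimus was compared with control on log2(value + 1) with limma 3.58.1 (R 4.3.3), whose prior variance followed mean level. Values were not rescaled, and genes needed 10 units or more in 5 or more libraries. Two-sided p-values were adjusted for the 12668 genes tested (Benjamini-Hochberg). Fold changes on this scale understate the change of low genes. On simulated data with 12668 genes the fit recovered 91% of genes changed by 1 on the log2 scale and 84% of those changed by 0.5, with 11 false calls. Whether these rates hold for the measured libraries, where 55.2% of genes were called and library sets differed, was not tested. Errors of levels are SD and those of fold changes are standard errors. The members and the 7 gene lists were chosen with earlier results of these data known. From each list the 4 called genes with the smallest p are named, and others (FOS, EGR4, IER5L, NAB2, RXRB, ZFP36L2, PAN2, CNOT10, VEGFA, FOSB, HSF1, HSP90AA1, HSPA1A, HSPA1B and the genes named for the filter) were added after their values were seen. A few genes that this rule picks are not reported here. Replicate numbers shared by the groups were not used as pairs, since the deviations of same-numbered samples correlated between -0.51 and 0.60. The lowest is control 3 with everolimus 3, which lie in different library sets. Every control correlated positively with everolimus samples of its own set and negatively with those of the other. A limma test of the set called 500 of 12668 genes. The main fit and the permutation tests do not model the set, and with it as a covariate 4 members were higher and 1 lower.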

Additional observations from a re-analysis of the deposited data

Results flagged for a closer look

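Chance marks about 1 in 20 groups by the rule used here, which compares the gap of the most extreme library to its neighbour with the range of its group, and 4 of 20 groups were marked. NR4A2 was high in control 3, at 16.2 units, with a gap of 0.702 of the range of the controls (critical value 0.625). Without that library the log2 fold change of NR4A2 was 1.55. IER5 was low in everolimus 4, at 826 units, with a gap of 0.760 of the range of its group (critical value 0.710), and the rise was 0.80 without it. EGR3 in control 2 (3 reads) and EGR3 in everolimus 5 (1 read) had a gap of 1.0 of the range because the other libraries of each group were at 0.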

How the results depend on the processing

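Of 183 alternative values of the members' effects, 179 allow a test, and 170 of these kept their direction and their side of the threshold. The other 4 are EGR2 and NR4A3 within the library sets, where the exact permutation test cannot reach 0.05 (NR4A3 0.81 and p = 0.3 in the first, 0.81 and p = 0.1 in the second). IER2 passed within the first library set (0.26) and turned sign within the second (-0.030). NR4A3 kept its sign, but its exact permutation p exceeded 0.05 in 7 of the 11 fits that left out a library, and over all 11 its log2 difference ranged from 0.65 to 0.90. With a pseudocount of 10 the log2 difference was 0.32 for NR4A3 and the log2 fold change 0.95 for NR4A2, since a larger pseudocount shrinks low genes. With the filter at 100 units, 2 members were higher, because NR4A1 and NR4A2 are under it. Leaving out single libraries moved EGR1 between -0.30 and -0.033, EGR2 between 0.055 and 0.44, NR4A1 between 0.72 and 0.89, NR4A2 between 1.35 and 1.55, IER2 between 0.058 and 0.17, IER5 between 0.75 and 0.80, ZFP36 between -0.39 and -0.29 and ZFP36L1 between 0.24 and 0.30, and left 4 members higher and 1 lower. The table as a whole then gave 3214 to 3499 genes higher and 3080 to 3584 lower. Among pairs, NR4A1 against NR4A3 turned to -0.087 with a pseudocount of 0.1 and to -0.084 within the second set, and ranged from -0.12 to 0.16 without single libraries. NR4A2 against NR4A3 passed with a pseudocount of 10 (0.63) and ranged from 0.49 to 0.77 without single libraries, passing without control 6. NR4A1 against NR4A2 ranged from -0.77 to -0.51 and passed without control 3. IER2 against IER5 (-0.71 to -0.61), ZFP36 against ZFP36L1 (-0.66 to -0.56) and EGR1 against EGR2 (-0.60 to -0.12) kept their calls. The pair values within a set were likewise read without a test. Except where named, the cause of these shifts was not tested. With the replicate number as a block, 3278 genes were higher and 2993 lower and the members' calls were unchanged; 4 of 5 same-numbered pairs correlated above 0.1, and 1 of 5 everolimus samples correlated best with its own number. Depth limits EGR2, EGR3 and NR4A3.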

Other observations

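Everolimus 5 was the highest of the 5 everolimus libraries for 5 of the 7 tested members, namely EGR1, NR4A1, IER2, ZFP36 and ZFP36L1, and the lowest for 0. Among the controls, control 4, the library with the fewest estimated reads, was the highest for 3 (NR4A1, IER2 and ZFP36), and control 2 was the lowest for 3 (EGR1, IER2 and ZFP36).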
